A study of Canis lupus familiaris with 4 samples.

Results

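Cholesterol and fatty acid synthesis genes were followed in P114 and CMT-U27, 2 canine mammary cancer lines, in cells sorted as stem-like and grown with or without tumour-associated macrophages. The 44 listed symbols cover the enzymes of sterol synthesis, the regulators of the pathway, proteins of cholesterol uptake and efflux, and enzymes of fatty acid synthesis. A symbol was taken as present when a non-control probe carried it as its gene name or in brackets in its description. By that rule 38 genes with 76 probes were found, of 34382 names in the gene name column, and all 38 genes and 75 of their probes could be measured. The probe shown for a gene was well above background in both channels of all 4 arrays. LSS, INSIG2, FASN and LPIN1 had no probe under these symbols, and SC4MOL and SC5DL are the older symbols of MSMO1 and SC5D, which were found. The list was chosen by its co-culture ratios in these data, so those ratios are given as a description and without a test.

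Sorting kept cells positive for Sca1, EpCAM and CD44 together, markers by which stem-like cells are enriched, and 0.02 to 0.05% of a line carried all of them. The groups compared were P114 cells alone, P114 cells with macrophages, CMT-U27 cells alone and CMT-U27 cells with macrophages, all grown in RPMI-1640 with fetal bovine serum and labelled day 3. The labels name no agent and no genetic change. Every one of 4 Agilent arrays paired the co-culture and the single culture of 1 line in Cy3 and Cy5, with the dyes exchanged between the 2 arrays of a line, and all ratios are log2 of co-culture over single culture. Per the labels the arrays are biological replicates, but separate cultures or RNA extracts are not named, so p-values measure only the spread between these arrays, which may be technical.

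Cells make cholesterol from acetyl-CoA through mevalonate and squalene. SREBF2 and SREBF1 encode the transcription factors that switch on sterol and fatty acid enzymes when membrane cholesterol is low: SCAP escorts the factors out of the endoplasmic reticulum, and INSIG1 holds SCAP back when sterols are plentiful. The receptors NR1H2 and NR1H3 (LXR) sense oxysterols and drive the exporters ABCA1 and ABCG1. Dividing tumour cells use the products for membranes, and macrophages take up and release much cholesterol.

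P114 replicate 1 stood apart from the other arrays, with 89.4% of its spots well above background in Cy3 and 91.7% in Cy5, against 57.9% to 65.7% in the channels of the other 3. Its ratios and those of P114 replicate 2 correlated at -0.15 over the 28690 probes tested, and the CMT-U27 arrays at 0.05. For that reason P114 ratios of single genes and medians of gene groups are given for each array. The dyes come from the label of each channel, and the ratios of a line would change sign if its dye record were wrong. Over all probes the limma fit called 0 (0%) in P114 and 0 (0%) in CMT-U27 at an adjusted p under 0.05, with 1757 and 928 at an unadjusted p under 0.05. In bulk RNA, fewer cells of a type and less RNA per cell cannot be told apart. Of 18 macrophage markers, 5 could be tested, all well above background in P114 but only CD14 and CD68 in CMT-U27. CD14 had ratios of 0.15 and -0.07 in P114 and 0.07 and 0.02 in CMT-U27, and CD68 had 0.19 and -0.12 and then 0.16 and 0.09. In P114 the other 3 were lower on both arrays, with CD86 at -0.34 and -0.35. The summed level of the 5 ran from 1532 to 1718 in P114 co-culture against 1762 to 1768 in single culture, and from 1429 to 1615 against 1329 to 1547 in CMT-U27. CSF1R, C1QA, MRC1, TYROBP and PTPRC were among 11 markers well above background in no CMT-U27 channel, and each was so in P114 on 1 of 2 arrays. All 6 epithelial markers found, EPCAM among them, were well above background in every group, as was CD44, and no probe for LY6A (Sca1) was found. The summed level of 6 fibroblast markers ran from 21412 to 22167 in P114 co-culture against 20951 to 22405 in single culture. In CMT-U27, where 3 of the 6 were well above background in both cultures, it was higher in co-culture without overlap, at 4160 to 4576 against 3536 to 3787, with COL1A2 at ratios of 0.29 and 0.32. Its part in the CMT-U27 ratios was not tested.

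Each value rests on 60-base probes, and 10 of them are shown because they carry the main pattern or disagree with another probe of their gene. Each has an open reading frame on the printed strand and lies in CanFam3.1 at the position that the array files give. The HMGCS1 probes lie at chr4:66647057-66647116 and chr4:66650651-66650940, the latter a window longer than the probe, on the plus strand. The IDI1 probe is at chr2:33929294-33929353 (plus), the INSIG1 probe at chr16:18263836-18264399 (plus, in a longer window) and the CYP51A1 probe at chr14:17746739-17746798 (minus). MSMO1 is read at chr15:61306378-61306437 (plus) and SCD at chr28:13125194-13125253 (plus). The 3 SREBF1 probes are at chr5:41686106-41686165, chr5:41680235-41680936 (a longer window) and chr5:41678957-41679016, all plus.
HMGCS1 probe 1: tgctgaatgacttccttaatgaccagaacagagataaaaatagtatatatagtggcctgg
HMGCS1 probe 2: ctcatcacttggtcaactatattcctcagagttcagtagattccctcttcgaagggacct
IDI1: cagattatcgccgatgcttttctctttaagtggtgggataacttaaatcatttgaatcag
CYP51A1: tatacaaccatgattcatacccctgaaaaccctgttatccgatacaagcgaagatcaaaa
MSMO1: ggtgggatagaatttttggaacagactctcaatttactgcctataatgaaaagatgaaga
INSIG1: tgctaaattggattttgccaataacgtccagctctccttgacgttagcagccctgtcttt
SCD: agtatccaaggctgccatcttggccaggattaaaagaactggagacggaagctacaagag
SREBF1 probe 1: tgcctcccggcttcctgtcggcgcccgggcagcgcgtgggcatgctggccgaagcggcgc
SREBF1 probe 2: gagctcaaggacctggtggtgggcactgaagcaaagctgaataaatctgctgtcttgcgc
SREBF1 probe 3: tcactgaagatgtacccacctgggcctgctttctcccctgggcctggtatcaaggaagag

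The sterol synthesis enzymes leaned in opposite directions in the lines. With macrophages, 14 of 17 had a mean ratio below 0 in P114, with a median of -0.16, while 16 of 17 had one above 0 in CMT-U27, with a median of 0.16. The P114 median was -0.12 on replicate 1 and -0.18 on replicate 2, and the CMT-U27 median was 0.16 and 0.20. Over all 28690 probes the medians were 0.01 and 0.02, with 55.1% of means above 0 in P114 and 67.5% in CMT-U27. In P114, 7 of 17 enzymes were lower and 2 higher on both arrays, where 18.2% of all probes were lower and 25.1% higher. In CMT-U27, 15 of 17 were higher and 1 was lower on both arrays, where 37.4% of all probes were higher and 13.2% lower. The spread between arrays, as the median SD over the 17 enzymes, was 0.17 in P114 and 0.07 in CMT-U27. The median ratio was about the size of that spread in P114 and larger than it in CMT-U27. That SD describes single genes and not the group median, so the comparison tests nothing. Epithelial markers, the cells' own, had a median ratio of -0.23 in P114 (-0.20 and -0.23 on replicates 1 and 2), with 5 of 6 lower on both arrays, and of -0.06 in CMT-U27, with 4 of 6 lower on both. Their part in the result was not tested.

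The direction in P114 depended on how brightness was treated. Loess sets each probe against probes of like brightness. With each array only centred on its median, the sterol median in P114 became 0.16, at the median of all probes (0.158), with 13 of 17 above 0 and 9 of 17 above the median of all probes. The same centring gave 1.44 in CMT-U27, or 0.76 above the median of all probes (0.684), with 15 of 17 enzymes above it. Of all probes it put 70.4% above 0 in P114 and 75.9% in CMT-U27. Relative to those medians, 16 of 17 enzymes had the higher ratio in CMT-U27. That order is no separate result, because without loess the ratios are not set against probes of like brightness. The bright SREBF1 probe, at -0.16 in P114 and -0.20 in CMT-U27 after loess, had 0.118 and 0.629 relative to those medians. The dim NSDHL probe had -0.263 and -0.784. The share of all probes with the higher relative ratio in CMT-U27 is not given for this setting.

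**Figure D1:**
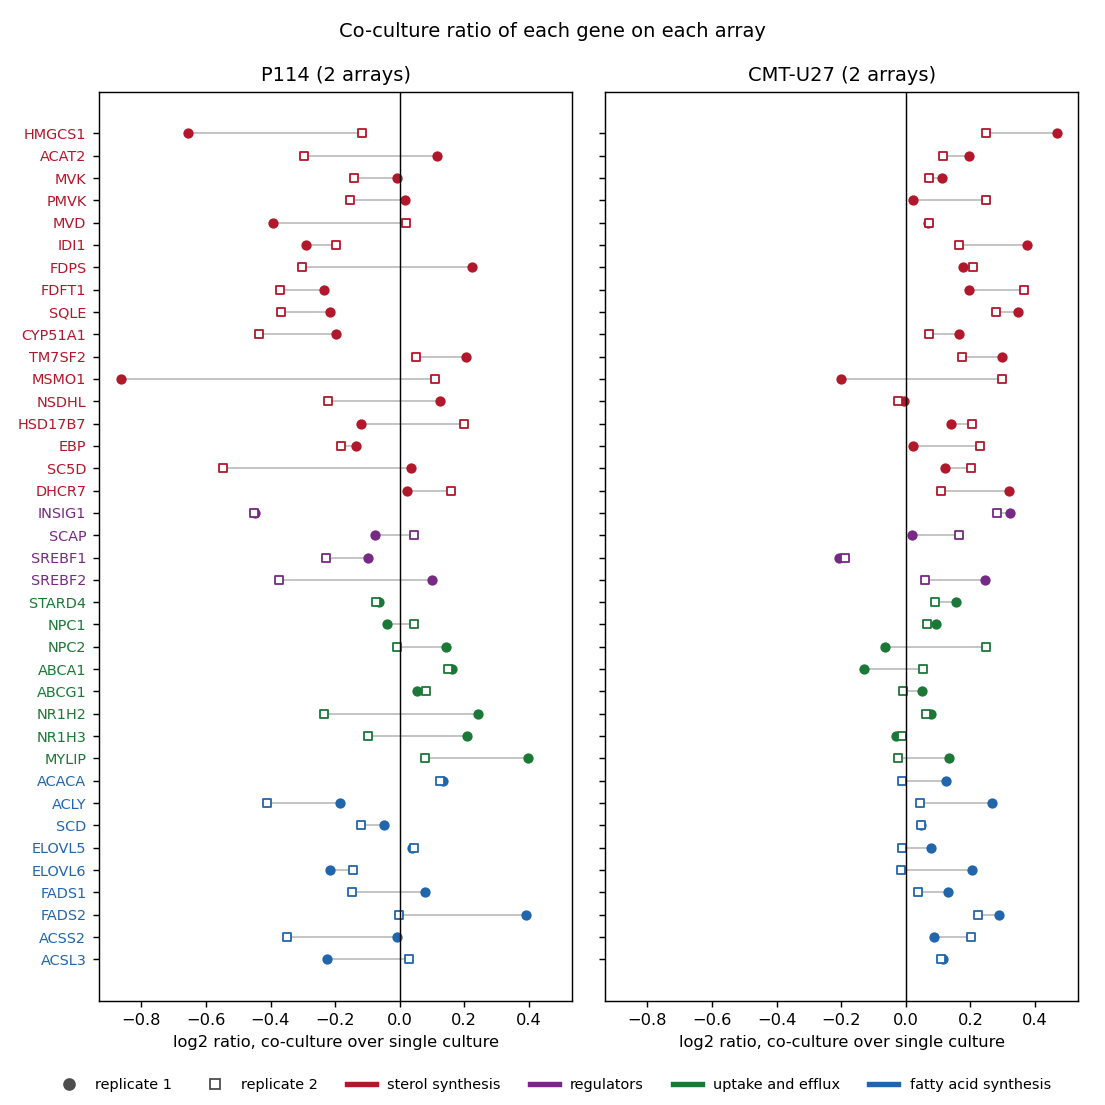
Log2 ratio of co-culture over single culture (horizontal axis) of each of 38 genes on each array, P114 left and CMT-U27 right, with filled circles for replicate 1, open squares for replicate 2 and colours for roles. Sterol enzymes lie mostly left of 0 in P114 and right of 0 in CMT-U27 after loess, and MSMO1 has the widest gap between the P114 arrays, from -0.86 to 0.11; with median centring instead, the sterol median in P114 is 0.16.

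In the mevalonate steps, HMGCS1, which joins acetyl-CoA and acetoacetyl-CoA, had ratios of -0.66 and -0.12 in P114 and of 0.47 and 0.25 in CMT-U27. The means were -0.39 ± 0.38 (SD, n = 2) and 0.36 ± 0.16 (SD, n = 2), or 1.31-fold lower and 1.28-fold higher with macrophages. The lines did not overlap, and replicate 1 was the lower of the P114 arrays. IDI1, the isomerase that makes the active isoprene unit, had -0.29 and -0.20 in P114 and 0.38 and 0.16 in CMT-U27, again without overlap. MVK, mevalonate kinase, showed the same order at a small size, with -0.01 and -0.14 against 0.11 and 0.07. MVD, the decarboxylase, had -0.39 and 0.02 against 0.07 and 0.07, and PMVK, the kinase before it, 0.02 and -0.15 against 0.02 and 0.25. These pairs lay apart by narrow margins and their P114 arrays differed in sign. ACAT2, the thiolase that makes acetoacetyl-CoA, and FDPS, farnesyl diphosphate synthase, overlapped between lines. FDPS had 0.22 and -0.30 in P114 and 0.18 and 0.21 in CMT-U27. ACAT2 had 0.12 and -0.29 in P114 and 0.20 and 0.11 in CMT-U27.

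From squalene on, the first enzymes had opposite signs on all arrays at the probes shown. FDFT1, squalene synthase and the step committed to sterols, had -0.24 and -0.37 in P114 and 0.20 and 0.37 in CMT-U27, with means of -0.30 ± 0.09 (SD, n = 2) and 0.28 ± 0.12 (SD, n = 2). SQLE, squalene epoxidase, had -0.22 and -0.37 against 0.35 and 0.28. CYP51A1, which removes a methyl group from lanosterol, had -0.20 and -0.44 against 0.16 and 0.07. In all 3 the lowest CMT-U27 value lay above both P114 values. With median centring their P114 means were 0.09 for FDFT1, 0.12 for SQLE and 0.10 for CYP51A1. A second CYP51A1 probe had -0.15 and 0.03 in P114 and 0.23 and 0.05 in CMT-U27. EBP, a sterol isomerase, followed the 3 enzymes at the probe shown, with -0.13 and -0.18 against 0.02 and 0.23. That probe is placed on chromosome X. The other EBP probes, placed on chromosome 8, had 0.12 and -0.12 and then 0.10 and -0.10 in P114. In CMT-U27 they had 0.24 and 0.13 and then 0.20 and 0.15. SC5D, a sterol desaturase, had 0.03 and -0.55 in P114 and 0.12 and 0.20 in CMT-U27, so its mean in P114 rested on replicate 2.

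The remaining late enzymes gave no such split. TM7SF2, a sterol reductase, was higher with macrophages on all 4 arrays, at 0.21 and 0.05 in P114 and 0.30 and 0.18 in CMT-U27. DHCR7, the reductase of the last step, was also higher on all 4, at 0.02 and 0.16 and at 0.32 and 0.11. HSD17B7, a sterol keto reductase, had -0.12 and 0.20 in P114 and 0.14 and 0.20 in CMT-U27. NSDHL, a sterol dehydrogenase, lay near 0 in CMT-U27 (-0.01 and -0.03) and on either side of it in P114 (0.12 and -0.22). MSMO1, the methylsterol oxidase, differed most between arrays of the same line: its ratios were -0.86 and 0.11 in P114 and -0.20 and 0.30 in CMT-U27. All 5 MSMO1 probes repeated this, with -0.98 to -0.74 on P114 replicate 1 and 0.11 to 0.52 on replicate 2, so its P114 mean of -0.38 ± 0.69 (SD, n = 2) describes neither array.

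At the probes shown, INSIG1, a regulator, had the largest difference between the lines among the 38 genes. Its ratio was -0.45 on both P114 arrays and 0.32 and 0.28 in CMT-U27, with means of 1.37-fold lower and 1.23-fold higher. Another INSIG1 probe had -0.18 and -0.004 in P114 and 0.17 and 0.22 in CMT-U27. With the mean of all probes of a gene, INSIG1 had -0.253 in P114 and 0.261 in CMT-U27. HMGCS1, IDI1 and FDFT1 then lay further apart, HMGCS1 at -0.223 and 0.393. With median centring, INSIG1 remained below 0 in P114, at -0.14, and was 1.61 in CMT-U27. SREBF2 had 0.10 and -0.37 in P114 and 0.25 and 0.06 in CMT-U27, and SCAP -0.08 and 0.04 against 0.02 and 0.16. Both overlapped between lines. SREBF1 was the regulator that was lower on all 4 arrays, at -0.10 and -0.23 in P114 and -0.21 and -0.19 in CMT-U27, but only at its brightest probe (probe 3 above), and with median centring this probe gave 0.28 in P114 and 1.31 in CMT-U27. SREBF1 probes 1 and 2 had means of 0.03 and 0.08 in P114 and of 0.13 and 0.06 in CMT-U27, opposite in sign to probe 3 in both lines.

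**Figure D2:**
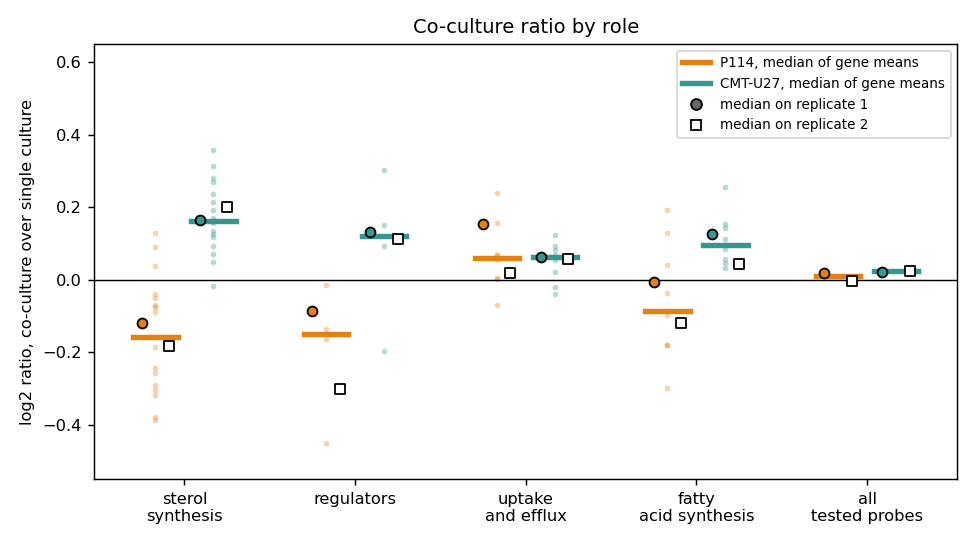
Median log2 ratio of co-culture over single culture (vertical axis) of the genes of each role and of all tested probes, with bars for the median of gene means, filled circles and open squares for the medians on replicates 1 and 2, and pale points for single genes. After loess the sterol medians are -0.16 in P114 and 0.16 in CMT-U27, the uptake and efflux medians are 0.06 in both, and all probes lie at 0.01 and 0.02; with median centring the P114 medians turn to 0.16 for sterol and 0.254 for fatty acid enzymes.

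Uptake and efflux proteins did not divide the lines as the enzymes did. Their median ratio was 0.06 in both lines, from 0.15 and 0.02 on the P114 arrays and 0.06 on each CMT-U27 array, 7 of 8 means were above 0 in P114 and 6 of 8 in CMT-U27, and 4 of 8 genes had the higher mean in CMT-U27. Of all probes, 55.1% of means were above 0 in P114 and 67.5% in CMT-U27. The CMT-U27 median was -0.01 without background correction and -0.03 with the scanner software's own ratio, with 3 of 8 means above 0 in each. ABCA1, which exports cholesterol to apolipoproteins, had 0.16 and 0.15 in P114 and -0.13 and 0.05 in CMT-U27. MYLIP, the ligase that marks lipoprotein receptors for breakdown, had 0.40 and 0.08 against 0.13 and -0.02, and ABCG1, a further exporter, 0.05 and 0.08 against 0.05 and -0.01. At the probes shown, these 3 LXR targets were higher on both P114 arrays and had mixed signs in CMT-U27. No other gene of the 8 was higher on both P114 arrays, where 25.1% of all probes were. The 3 were grouped with their ratios known, and a rise of LXR targets in P114 was not tested. A second ABCA1 probe had -0.13 and 0.25 in P114 and -0.03 and -0.06 in CMT-U27. With median centring ABCG1 lay below the median of all probes in P114, by a log2 ratio of -0.07. NR1H2 and NR1H3, the LXR genes, each changed sign between the P114 arrays, at 0.24 and -0.23 and at 0.21 and -0.10. NPC1 and NPC2 release cholesterol from lysosomes. NPC1 had -0.04 and 0.04 in P114 and 0.09 and 0.07 in CMT-U27, and NPC2 had 0.14 and -0.01 and then -0.06 and 0.25. STARD4, a carrier of cholesterol between membranes and a target of SREBF2, was the exception in having opposite signs in the lines on all arrays. Its ratios were -0.06 and -0.07 in P114 and 0.16 and 0.09 in CMT-U27. Neither STARD4 nor NPC1 overlapped between the lines at the probe shown. A second NPC1 probe gave the reverse order, with 0.026 and 0.113 in P114 and 0.010 and 0.009 in CMT-U27. A second STARD4 probe had the opposite sign in P114, at 0.17.

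Fatty acid enzymes leaned the same ways as the sterol enzymes after loess, with smaller medians. In P114, 3 of 9 means were above 0 with a median of -0.08, which was -0.01 on replicate 1 and -0.12 on replicate 2 and turned to 0.254 with median centring. In CMT-U27, 9 of 9 means were above 0 with a median of 0.10, from 0.13 on replicate 1 and 0.04 on replicate 2. Of all probes, 55.1% of means were above 0 in P114 and 67.5% in CMT-U27. Without background correction 8 of 9 were above 0 in CMT-U27, beside 52.8% of all probes. ACLY, which makes cytosolic acetyl-CoA from citrate and so feeds both pathways, had -0.19 and -0.41 in P114 and 0.27 and 0.04 in CMT-U27. ACSS2, which makes it from acetate, had -0.01 and -0.35 against 0.09 and 0.20. SCD, the desaturase of stearoyl-CoA, had -0.05 and -0.12 against 0.05 and 0.05. At the probes shown, the lines did not overlap in these 3 genes. At the second ACSS2 probe they did, with 0.10 and -0.01 in P114 and 0.11 and 0.01 in CMT-U27. They also did at ACLY probes with 0.22 and -0.23 against 0.16 and 0.18, and with 0.05 and -0.12 against 0.21 and -0.05. The remaining ACLY probe and the other SCD probes showed no overlap.

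The chain-lengthening and desaturating enzymes were less uniform. ELOVL6, an elongase of saturated chains, had -0.21 and -0.14 in P114 and 0.21 and -0.01 in CMT-U27, without overlap. ELOVL5, an elongase of polyunsaturated chains, stayed within 0.08 of 0 on all 4 arrays. FADS2, a desaturase of polyunsaturated fatty acids, was high on P114 replicate 1 (0.39) and at 0.00 on replicate 2, with 0.29 and 0.22 in CMT-U27. FADS1, its partner, had 0.08 and -0.15 against 0.13 and 0.04. ACSL3, which activates fatty acids, had -0.22 and 0.03 against 0.11 and 0.11, also without overlap. ACACA, acetyl-CoA carboxylase and the committed step, was positive on both P114 arrays at 0.13 and had 0.13 and -0.01 in CMT-U27. A probe described in words as fatty acid synthase was outside the rule and looked up after its values were seen. It had -0.02 and -0.01 in P114 and 0.24 and 0.51 in CMT-U27. The same search gave probes described as lipin 1, with means of -0.08 to 1.36 in P114 and 0.01 to 0.08 in CMT-U27. The mean of 1.36 came from a probe with 3.01 and -0.28 that was not well above background in P114 co-culture.

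Set side by side, the lines differed most for sterol enzymes. The mean ratio was higher in CMT-U27 than in P114 for 17 of 17 sterol enzymes, 3 of 4 regulators, 4 of 8 uptake and efflux genes and 7 of 9 fatty acid enzymes, against 56% of all probes. At the probes shown, both CMT-U27 ratios lay above both P114 ratios in 10, 1, 2 and 5 of these genes. That was 18 of 38 in all, against 15.7% of all probes. Some other probes, among them those of PMVK and NPC1, did not repeat this. In 12 of 38 both CMT-U27 arrays were above 0 and both P114 arrays below it (7 sterol enzymes, INSIG1, STARD4, ACLY, SCD and ACSS2), against 5.76% of all probes. The median difference, CMT-U27 minus P114, was 0.26 for sterol enzymes, 0.13 for fatty acid enzymes and -0.01 for uptake and efflux genes, and 0.01 over all probes. These shares describe a list chosen on the same ratios, so they test nothing. Within a line the order of genes was hardly shared by the arrays: over the 17 sterol enzymes Pearson's r between arrays was -0.24 in P114 and 0.07 in CMT-U27, a correlation across genes that share an array.

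The probes of a gene mostly gave the same sign in CMT-U27, and less often in P114. Of 25 genes with more than 1 tested probe, all probes of a gene had means of the same sign in 15 genes in P114 and in 21 in CMT-U27, and in 9 genes every probe was below 0 in P114 and above 0 in CMT-U27. HMGCS1 probes 1 and 2, printed above, had means of -0.12 ± 0.02 and -0.16 ± 0.07 (SD, n = 2) in P114 and 0.37 ± 0.05 and 0.45 ± 0.16 (SD, n = 2) in CMT-U27. They were nearer to 0 in P114 than the brightest probe, whose -0.66 on replicate 1 no other HMGCS1 probe repeated. The printed IDI1 probe gave -0.41 in P114 and 0.20 in CMT-U27, and the printed SCD probe -0.22 and 0.24, both lower in P114 than the brightest probe of each gene (-0.24 and -0.08). The printed INSIG1 probe gave -0.22 and 0.29, less in P114 than the -0.45 of the brightest. Among the genes whose probes disagreed in P114, the second probes of MVD and ACSS2 had means of 0.09 and 0.05. Their brightest probes had -0.19 and -0.18.

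**Figure D3:**
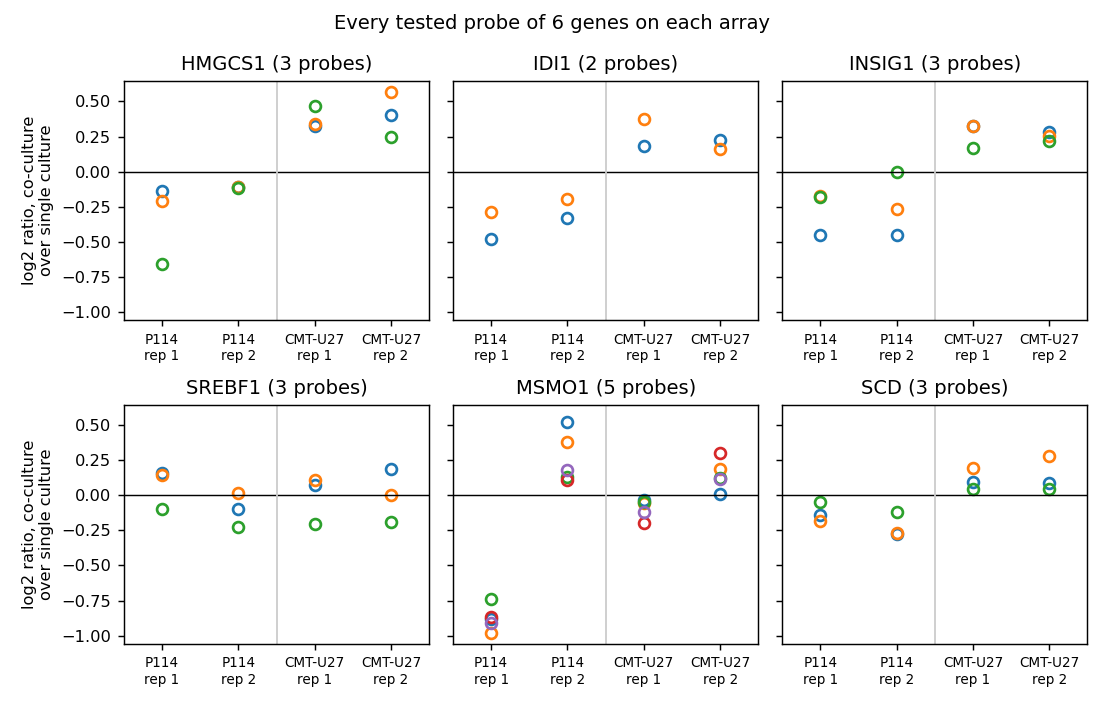
Log2 ratio of co-culture over single culture (vertical axis) of every tested probe of 6 genes on each array (horizontal axis), each colour a probe within its panel. HMGCS1, IDI1 and INSIG1 probes lie at or below 0 on P114 arrays and above 0 on CMT-U27 arrays after loess, MSMO1 probes drop together on P114 replicate 1 (-0.98 to -0.74), and the SREBF1 probes do not share a sign.

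Levels in single culture, which were not used to choose the genes, were compared between the lines with a limma fit of all 8 channels, adjusted over 28690 probes. The single-culture channels are also the denominators of the ratios above, so the comparisons are not independent. The P114 arrays came from 1 scan and the CMT-U27 arrays from another, so scan and line cannot be told apart here. Of 38 genes, 9 passed an adjusted p of 0.05 (23.7%), against 17.3% of all probes. CMT-U27 was higher for 6 and lower for 3, where 9.18% and 8.16% of all probes were. The genes that passed included 4 of 17 sterol enzymes, 1 of 4 regulators, 2 of 8 uptake and efflux genes and 2 of 9 fatty acid enzymes.

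HMGCS1 had single-culture log2 levels of 10.35 and 10.37 in P114 and 12.21 and 12.40 in CMT-U27. It was 3.85-fold higher in CMT-U27, a log2 difference of 1.94 with a 95% interval of 1.38 to 2.51 (limma adjusted p = 0.00473). CYP51A1 followed with 12.08 and 12.21 against 13.87 and 13.76, a difference of 1.67 (limma adjusted p = 0.00681), but its second probe differed by 0.08 (limma adjusted p = 0.71), so that call rests on 1 probe. INSIG1 had 9.44 and 9.39 in P114 and 10.78 and 10.79 in CMT-U27, and differed by 1.37 with an interval of 1.09 to 1.65 (limma adjusted p = 0.00161). All 3 HMGCS1 probes and all 3 INSIG1 probes passed, so these line differences did not rest on a single probe. TM7SF2 differed by 1.22 (limma adjusted p = 0.0114) and IDI1 by 0.57 (limma adjusted p = 0.0352). NPC2, the lysosomal cholesterol carrier, was the uptake gene that was higher in CMT-U27, by 1.25 (limma adjusted p = 0.00428), with 1.30 at its second probe (limma adjusted p = 0.111).

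The genes lower in CMT-U27 were ABCA1, ACSS2 and SCD. ABCA1 had levels of 8.62 and 8.85 in P114 and 7.60 and 7.56 in CMT-U27, a difference of -1.15 with an interval of -1.55 to -0.76 (limma adjusted p = 0.00793), while its second probe differed by -0.46 (limma adjusted p = 0.235). ACSS2 differed by -1.03 (limma adjusted p = 0.0222) and at its second probe by -0.14 (limma adjusted p = 0.647). For both genes the probe that passed carries the symbol only in its description, and the one that did not pass has it as its gene name. SCD differed by -0.58 (limma adjusted p = 0.0398), and all 3 of its probes passed. ELOVL6 differed by -0.56 and just missed the threshold (limma adjusted p = 0.0502). SQLE, whose co-culture ratios split the lines, had single-culture levels of 11.48 and 11.67 against 11.66 and 11.53, which overlapped, and a difference of 0.02 with an interval of -0.42 to 0.45. FDFT1 did not pass at the probe shown (0.37, limma adjusted p = 0.0839), and its other probe passed in the opposite direction (-0.49, limma adjusted p = 0.0382).

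**Figure D4:**
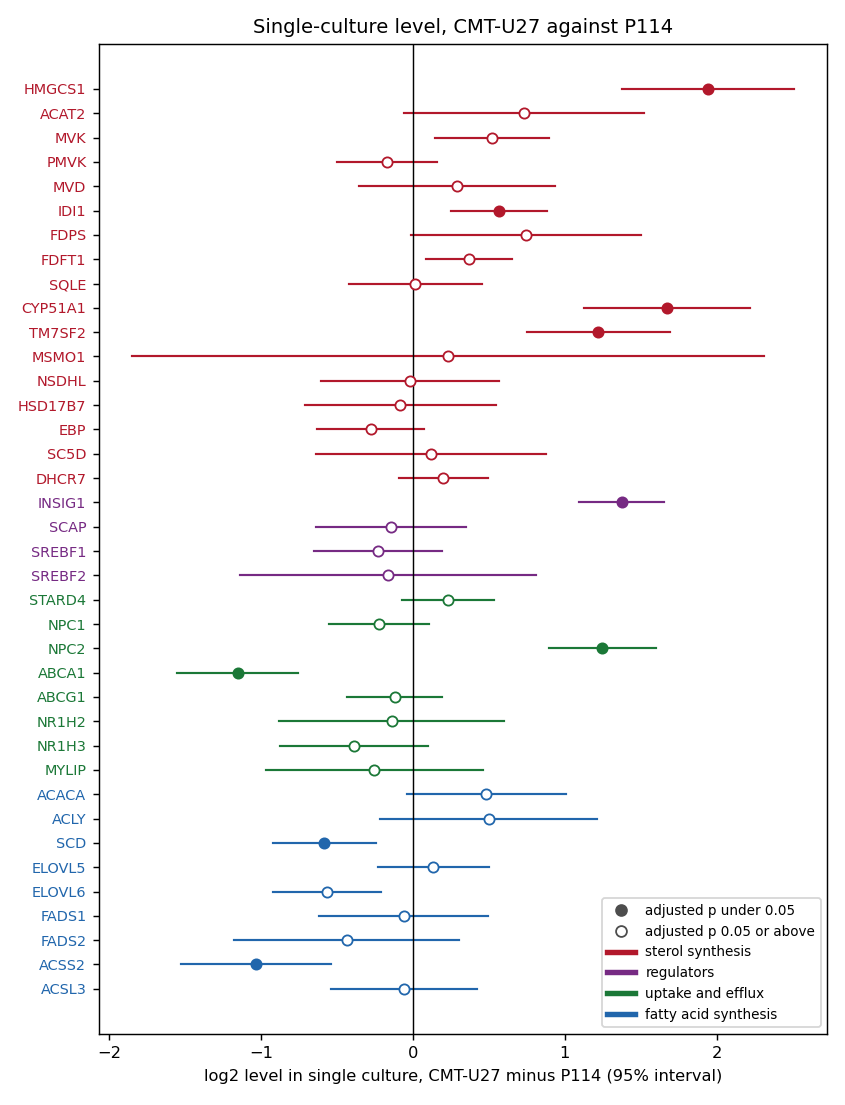
Difference in single-culture log2 level, CMT-U27 minus P114 (horizontal axis), of each of 38 genes with its 95% interval, filled where the limma adjusted p was under 0.05, in colours for roles. HMGCS1, CYP51A1, INSIG1, NPC2, TM7SF2 and IDI1 lie to the right of 0 and ABCA1, ACSS2 and SCD to the left.

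At the probes shown, the call of 7 of these genes (HMGCS1, CYP51A1, INSIG1, NPC2, TM7SF2, ABCA1 and ACSS2) was kept in 11 of 11 other settings, and those of IDI1 and SCD in 7 of 11. The number of genes called rose to 21 without P114 replicate 1 and to 25 without P114 replicate 2, as did the share of all probes, to 48.6% and 58.5%. It was 8 and 7 without the CMT-U27 replicates, with 20.2% and 17.5% of all probes. For INSIG1 the single-culture gap widened in co-culture, where its levels were 8.99 and 8.94 in P114 and 11.10 and 11.07 in CMT-U27. HMGCS1 levels in co-culture were 9.70 and 10.25 against 12.68 and 12.65. These levels restate the co-culture ratios on which the list was chosen and are no further result. Non-overlap alone did not set the genes apart, since the lines did not overlap in single culture for 73.7% of the 38 genes and for 73% of all probes.

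Other genes of lipid metabolism were mostly above 0 in CMT-U27 and less clearly so in P114. Of 55 such genes, taken from a list of the pathway's neighbours, 49 were measured. In P114, 32 of 49 means were above 0, where 55.1% of all probes were, and the median was 0.13 on replicate 1 and -0.01 on replicate 2. On both arrays 15 were higher and 6 lower, beside 25.1% and 18.2% of all probes. In CMT-U27, 44 of 49 were above 0, where 67.5% of all probes were, with a median of 0.08. On both arrays 33 were higher and 2 lower, beside 37.4% and 13.2% of all probes. The largest P114 means belonged to TECR, a reductase of chain elongation (0.28 ± 0.56, SD, n = 2), ELOVL1, an elongase (0.26 ± 0.01, SD, n = 2), ME1, the malic enzyme that supplies NADPH (-0.23 ± 0.05, SD, n = 2), and ACSL4, an acyl-CoA synthetase (-0.22 ± 0.19, SD, n = 2). The TECR arrays disagreed in sign, at 0.68 and -0.11. In CMT-U27 the largest were ACSL5, an acyl-CoA synthetase (0.41 ± 0.02, SD, n = 2), TECR (0.37 ± 0.04, SD, n = 2), SLC25A1, the citrate carrier that feeds ACLY (0.35 ± 0.03, SD, n = 2), and LPCAT3, which remodels phospholipids (0.27 ± 0.03, SD, n = 2).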

How the data were processed

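Per the file headers, the deposited scanner output gives each spot's intensity on a linear scale and a log10 ratio of Cy5 over Cy3. Agilent Feature Extraction made them, version 10.10.1.1 per the file headers and 10.7.3.1 per the submitters' processing notes. The series value table deposited by the authors equalled that log10 ratio (largest gap 0). Filters used other deposited columns, which mark spots by 0 or 1. The array design is 021193, with positions in CanFam3.1. Annotation differed between the files of the lines, and the rule was applied to both. The labels' protocols name a miRNA labelling kit, although the arrays measure gene expression. All 4 arrays lay on 1 slide.

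Of 45220 spots, 1417 were controls. Mean signals were corrected by normexp (offset 50) against the median background and loess was run within arrays. Spots marked as outliers were left out and spots of a probe averaged. Of 43603 probes, 28730 were well above background on both arrays of a line and culture, and 28690 had values on all arrays. A gene is shown by its brightest such probe, a rule that allows every measured member to be named. No spot was saturated (0). Precision is limited by the number of arrays.

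Ratios were fitted by lmFit and eBayes with a dye term. The line comparison was a separate-channel fit (lmscFit after Aquantile, intraspot correlation 0.93, 3 residual degrees of freedom), Benjamini-Hochberg adjusted over all probes, in limma 3.58.1 (R 4.3.3; tables were read by data.table, release 1.17.8). Fits were tested on simulated data with the spread of these arrays, where the separate-channel fit missed smaller planted changes that the ratio fit found. Every planted change was larger than the mean co-culture ratio of any member, so co-culture ratios as small as those given here were not tried. Figures used Python 3.11.15 and matplotlib 3.10.9. Members, lists and tests were chosen with earlier results of these data known. Alternatives are given in the closing section.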

Additional observations from a re-analysis of the deposited data

Results flagged for a closer look

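After loess, 12 genes had a co-culture ratio below 0 on both P114 arrays and above 0 on both CMT-U27 arrays at the probe shown. Some other tested probes of CYP51A1, EBP, STARD4, ACLY and ACSS2 did not repeat this. The difference between the lines was not tested for any of the 12 genes, since the genes were chosen on these ratios. The differences, CMT-U27 minus P114, were 0.74 for HMGCS1, 0.17 for MVK, 0.51 for IDI1, 0.58 for FDFT1, 0.60 for SQLE, 0.44 for CYP51A1, 0.28 for EBP, 0.75 for INSIG1, 0.19 for STARD4, 0.45 for ACLY, 0.13 for SCD and 0.32 for ACSS2. Group medians likewise lay on opposite sides of 0 on all arrays for sterol enzymes (difference of medians 0.32), regulators (0.27) and fatty acid enzymes (0.18), also untested. P114 replicate 1 is the array with 89.4% and 91.7% of spots well above background.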

How the results depend on the processing

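With median centring in place of loess, median ratios became 0.16 (sterol, P114), 1.44 (sterol, CMT-U27), 0.254 (fatty acid, P114), 1.39 (fatty acid, CMT-U27), 0.236 (uptake and efflux, P114) and 0.545 (uptake and efflux, CMT-U27), beside 0.158 and 0.684 for all probes of P114 and CMT-U27, and 21 of 38 P114 means changed sign. Without background correction, sterol and uptake medians in CMT-U27 were 0.119 and -0.0109. The scanner software's log ratio and the series value table, which are the same values, gave 0.129 and -0.0256. With the mean of all probes of a gene, the sterol median was -0.0748 in P114 and the uptake median 0.0501 in CMT-U27. If P114 replicate 1 were turned against its label, medians would be -0.0679 (sterol) and -0.0417 (uptake), and with replicate 2 turned 0.0679 (sterol) and 0.0347 (fatty acid). Leaving out an array gave -0.182 to -0.12 (sterol, P114), 0.164 to 0.201 (sterol, CMT-U27), -0.119 to -0.00703 (fatty acid, P114), 0.0428 to 0.126 (fatty acid, CMT-U27), 0.018 to 0.153 (uptake, P114) and 0.0568 to 0.0633 (uptake, CMT-U27). The 9 single-culture calls became 16 without a dye term (34.5% of all probes called, against 17.3% as reported), 18 with single-culture channels alone (43%) and 17 over all 75 probes, and 7 to 25 with an array left out, where a line's lone array is assumed to vary like the others and the correlation of the full fit was kept. The cause of these changes was not tested. Aquantile, both other filters and kept spots changed no sign of a member's ratio, and the dye term cancels in the mean of a line. No paired analysis was possible because the labels carry no replicate numbers (those used here follow the order of the records); within a line each ratio already pairs the cultures of an array.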
